A study of Mus musculus with 25 samples.

Results

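Lin- lung cells from Fas+/+ mice at 3 weeks after bleomycin, the peak of fibrosis in this model, were compared with Lin- cells from naive mice by bulk RNA-seq. The comparison holds 4 libraries labelled Week3 WT and 4 labelled Control, which are 8 of the 20 bulk libraries and of the 25 samples of the series. They were taken by these labels, and the comparison was chosen with earlier results of these data known. Lin- cells are live single cells of the lung left after leukocytes (CD45), endothelium (CD31) and epithelium (CD326) have been gated out, so that mesenchymal cells are kept. The labels call the source primary lung fibroblasts. All mice of both groups carried Col1-CreERT2, a Cre recombinase that is driven by the Col1a1 promoter and is active only after tamoxifen, together with Fas fl/fl alleles. The bleomycin group received 1 intratracheal dose of bleomycin and then injections of corn oil, the solvent of tamoxifen, so Fas was not deleted and the mice are called Fas+/+. Naive mice had the same alleles and were not instilled. Whether they received corn oil is not stated, so bleomycin and the injections cannot be told apart. Ages are not given, and the labels do not say that each library came from a separate mouse. The paper's statistics section describes n as individual animals, and its legend for the bulk data gives n = 4. On that reading the p-values measure the spread between mice. Otherwise they measure a spread between libraries that may in part be technical.

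Bleomycin injures the alveolar epithelium, and the injury is followed by inflammation and by a phase in which fibroblasts divide and deposit matrix. The normal lung mesenchyme includes alveolar fibroblasts, which lie beside the alveolar epithelium and store retinoids and lipid, adventitial fibroblasts in the cuffs of vessels and airways, pericytes on capillaries, and smooth muscle. In fibrosis a share of fibroblasts turns to the secretion of fibrillar collagens, fibronectin and matricellular proteins, which are matrix proteins that act on cells more than they bear load. Fas is a death receptor through which fibroblasts can be removed by apoptosis when a fibrotic lung resolves.

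In the bulk libraries, transcripts of matricellular proteins, fibrillar collagens, chemokines, acute-phase proteins and the mitotic machinery were higher at week 3. Those of alveolar fibroblasts, pericytes and contractile cells were lower. The bulk libraries also hold other cells. In mesenchymal cells of the single-cell libraries, some list sums changed direction when cell barcodes shared between libraries were left out. These were the sums of profibrotic, fibrillar collagen, proliferation and contractile genes. They did not when each shared barcode was kept only in its deepest library, the one where it had the most UMIs. The sum of provisional matrix and matricellular genes was lower at week 3 in all of these settings. Of 47729 genes listed, 15773 passed the filter on low counts and were tested with edgeR's quasi-likelihood test. A gene was called higher or lower at a Benjamini-Hochberg adjusted p of at most 0.05. By this rule 3484 genes (22.1%) were higher and 3033 (19.2%) lower at week 3, and 6517 (41.3%) were called in either direction. These shares are the background for every count of called genes given here. The median log2 fold change over all tested genes was 0.01. The gains reached further than the losses. Changes of at least 8-fold were found for 579 of the genes called higher and for 11 of those called lower. In 5082 tested genes (32.2%) the values of the 2 groups did not overlap, with 2403 of these called higher (15.2% of the tested genes) and 2262 called lower (14.3%). Levels are counts per 1000000 (CPM) scaled by TMM, given for naive replicates 1 to 4 and then for week 3 replicates 1 to 4. Fold changes are log2 values of week 3 over naive with their SE, from 4 libraries in each group. Because CPM are not divided by transcript length, levels are compared between groups and not between genes.

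Total counts ran from 20995314 to 25189096 in the naive and from 11819700 to 20178149 in the week 3 libraries. Week 3 replicate 1 stood apart from the other 3. Its log2 CPM correlated with theirs at 0.943 to 0.958 over genes, while theirs correlated with each other at 0.984 to 0.988. This library had the lowest level of many genes that rose at week 3 and the highest level of endothelial genes. List counts and fold changes that moved by over 1.5 times without it are given without it as well.

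Markers of other cells differed between the groups despite the sort. The summed level of 20 blood endothelial markers was 534 to 1014 CPM in the naive libraries and 17463, 6217, 5260.5 and 4918 CPM in the week 3 libraries. All 20 were called higher. Pecam1, which encodes the sorted protein CD31, was at 18.3, 54.2, 26.7 and 23.6 CPM in the naive and 1626, 568, 454 and 413 CPM in the week 3 libraries, without overlap. The sum of alveolar epithelial markers was 149 to 239 CPM in the naive and 332 to 1055 CPM in the week 3 libraries, with 12 of 16 called higher. That of lymphatic endothelial markers was 50.4 to 86.2 CPM and 355 to 456 CPM, with 6 of 7 called higher. Macrophage and monocyte markers summed to 11.6 to 15.9 CPM in the naive and 97.2 to 114 CPM in the week 3 libraries, with 11 of 13 tested markers called higher, and platelet markers to 3.82 to 7.19 CPM and 18.4 to 38.6 CPM, with 8 of 10. Markers of lymphocytes and all leukocytes summed to at most 7.0 CPM in any library.

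Red cell markers went the other way. They summed to 3091 to 9738 CPM in the naive and 118 to 164 CPM in the week 3 libraries, and 12 of 13 tested were called lower. The largest decreases of all genes by the fixed rule were those of the globin genes Hba-a1, Hba-a2 and Hbb-bs. Hba-a1 was at 890.1, 788, 2495 and 1069.9 CPM in the naive and 18.3, 9.86, 6.74 and 6.23 CPM in the week 3 libraries, a log2 fold change of -6.98 ± 0.57 (adjusted p = 3.79e-07). Hba-a2 changed by -6.89 ± 0.58 (-7.49 without week 3 replicate 1) and Hbb-bs by -6.76 ± 0.57. Alas2, which starts heme synthesis in red cell precursors, changed by -6.22 ± 0.5 (adjusted p = 3.79e-07). Mesothelial markers summed to 731 to 1368 CPM in the naive and 356 to 657 CPM in the week 3 libraries, with 9 of 10 called lower. The 12 genes that defined mesenchymal cells summed to 27506 to 36189 CPM in the naive libraries, to 19072 CPM in week 3 replicate 1 and to 38406 to 41791 CPM in the other week 3 libraries, with 0 of 12 called higher and 6 lower (2 and 6 without replicate 1, 4 and 6 when the libraries were scaled on mesenchymal genes). In bulk data, fewer cells of a type and less RNA per cell cannot be told apart.

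**Figure D1:**
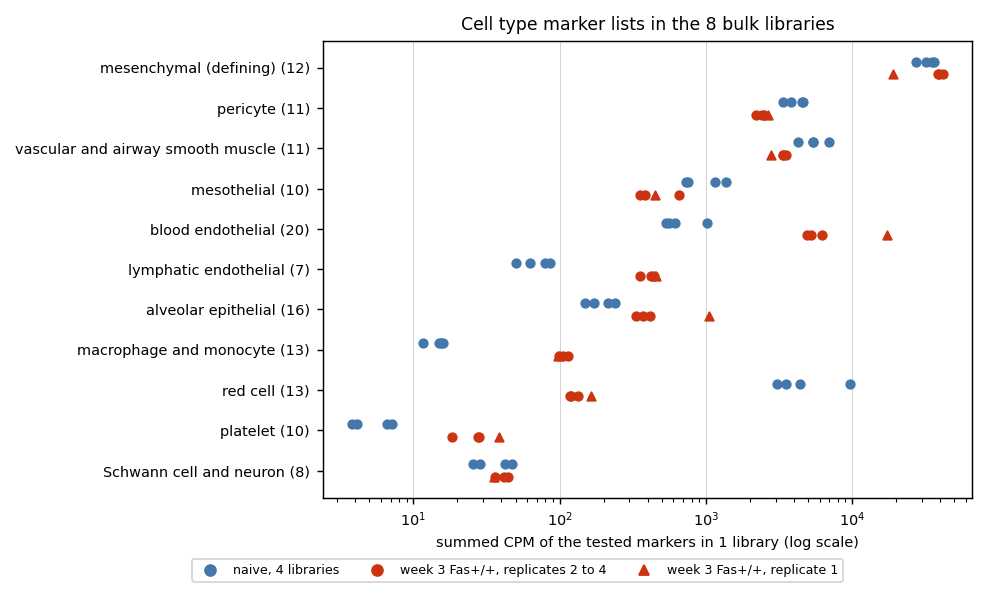
Summed CPM of marker genes of each cell type in the 4 naive and the 4 week 3 Fas+/+ bulk libraries, on a log10 axis, 1 point per library, with triangles for week 3 replicate 1. Blood endothelial markers sit at 534 to 1014 CPM in the naive and at 4918 to 17463 CPM in the week 3 libraries, and red cell markers at 3091 to 9738 CPM and at 118 to 164 CPM.

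Each gene was also assigned to a class of cells in the single-cell libraries of the same study. This was the class in which the gene's share of all UMIs was highest. A gene needed at least 20 UMIs over all classes, and a class counted for it only with at least 5 of them. Classes of few cells could therefore be passed over for genes with few UMIs. A gene described as highest in a class is meant in this sense. The classes, of at least 20 cells each, were mesenchymal, mesothelial, blood endothelial, lymphatic endothelial, alveolar epithelial, red cell and platelet. Other cells, such as macrophages, lymphocytes and airway epithelium, had no class, so their genes were assigned elsewhere. Highest in mesenchymal cells were 4 of 13 tested macrophage and monocyte markers, 3 of 4 of lymphocytes and all leukocytes, and 2 of 3 of airway epithelium. Of 2911 tested genes that were highest in mesenchymal cells, 386 (13.3%) were called higher and 1023 (35.1%) lower. Of 11250 genes that were highest in another class, 2881 (25.6%) were called higher and 1860 (16.5%) lower. The other 1612 tested genes were assigned to no class, with 217 called higher and 150 lower. Blood endothelial cells held the highest level of 2996 tested genes, 1086 of which were called higher and 201 lower. Among mesenchymal genes, 102 were higher by at least 8-fold and 0 were lower by as much. When the libraries were scaled on mesenchymal genes alone, the median of all genes moved up by 0.28 on the log2 scale, 6112 genes were called higher and 1169 lower, and all 3484 genes called higher above were kept. Losses of small size therefore depend on the scaling, and the log2 fold change with mesenchymal scaling is given beside the main losses. Counts of a list under that scaling are given where either count moved by over 1.5 times or where the balance of higher and lower turned.

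Fas itself was higher at week 3. It lies at chr19:34290666-34327772 on GRCm38. Its level was 23.9, 21.1, 21.9 and 21.4 CPM in the naive and 57.7, 34, 34.1 and 38.4 CPM in the week 3 libraries, without overlap, and the log2 fold change was 0.9 ± 0.2 (adjusted p = 0.00183). Without week 3 replicate 1, the highest of the libraries, it was 0.68 (adjusted p = 0.00636). The share of Fas among all UMIs was highest in blood endothelial cells. Within mesenchymal cells of the single-cell libraries, Fas was at 0.567 (0.503 to 0.637) UMIs per 10000 in the naive and 0.656 (0.623 to 0.691) in the week 3 library (95% Poisson intervals, which cover counting error only). The intervals overlap. Without barcodes that libraries share it was at 0.566 and 0.666.

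Profibrotic fibroblast genes, a list of transcripts known from collagen-producing cells of fibrotic lungs, rose in most of their members. Of 14 tested members 11 were called higher and 1 lower, with a median log2 fold change of 2.68. Postn (periostin), which is also on the provisional matrix and pericyte lists, was not among those called higher. Members such as Col1a1, Spp1 and Cthrc1 are among the genes by which the paper describes its profibrotic clusters in bleomycin lungs. The list is therefore not independent of these data, and its share of higher calls is not a separate test. Cthrc1, a secreted protein that marks activated fibroblasts in fibrotic lung, was at 0.388, 0.519, 0.287 and 0.736 CPM in the naive and 5.84, 65.1, 64.8 and 46.2 CPM in the week 3 libraries. It lies at chr15:39076932-39087121, and its log2 fold change was 6.53 ± 0.76 (adjusted p = 7.45e-06). The lowest week 3 library, replicate 1, was still above every naive library. Grem1, a secreted inhibitor of BMP ligands at chr2:113746164-113758646, was at 0.258, 1.52, 0.764 and 1.77 CPM in the naive and 5.15, 127, 139 and 76.7 CPM in the week 3 libraries, a log2 fold change of 6.31 ± 0.94 (adjusted p = 7.09e-05). All 11 members called higher had their lowest week 3 level in replicate 1. Without that library 12 were higher and the median was 3.05. Only 4 of the 14 were higher without overlap. Summed over the list, replicate 1 was at 8339 CPM, below the naive range of 10297 to 18597 CPM. The other week 3 libraries were at 30512 to 39435 CPM.

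Provisional matrix and matricellular proteins rose in 11 of 21 tested members and fell in 4, with a median of 1.2. Spp1 (osteopontin), a secreted phosphoprotein bound by integrins, was at 61.6, 45.5, 81.1 and 41.1 CPM in the naive and 146, 1779, 2999 and 2179.9 CPM in the week 3 libraries, a log2 fold change of 4.95 ± 0.72 (adjusted p = 5.8e-05). Tnc (tenascin C), a matrix protein of healing wounds, was at 128, 173, 127 and 181 CPM in the naive and 186, 2549, 3070.0 and 2326 CPM in the week 3 libraries, a log2 fold change of 3.74 ± 0.61 (adjusted p = 0.00016). In both genes replicate 1 was above the naive range by less than the other 3 week 3 libraries were. Tnn (tenascin N) rose from a range of 0.517 to 1.16 CPM to one of 2.94 to 29.8 CPM. Thbs4 (thrombospondin 4) rose by 4.15 ± 0.94, and in it naive replicate 4, at 38.3 CPM, exceeded week 3 replicate 1, at 32.8 CPM. Without naive replicate 4 the log2 fold change of Thbs4 was 7.03. Fn1 (fibronectin), the main protein of provisional matrix, was at 5872, 5816, 5915 and 6725 CPM in the naive and 5388, 20864, 24930.2 and 19989 CPM in the week 3 libraries, a log2 fold change of 1.55 ± 0.34 (adjusted p = 0.00181). Here replicate 1 was below all naive libraries and the other 3 were above them. All 11 members called higher had their lowest week 3 level in replicate 1, and without it 14 were higher and 4 lower, with a median of 1.5.

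**Figure D2:**
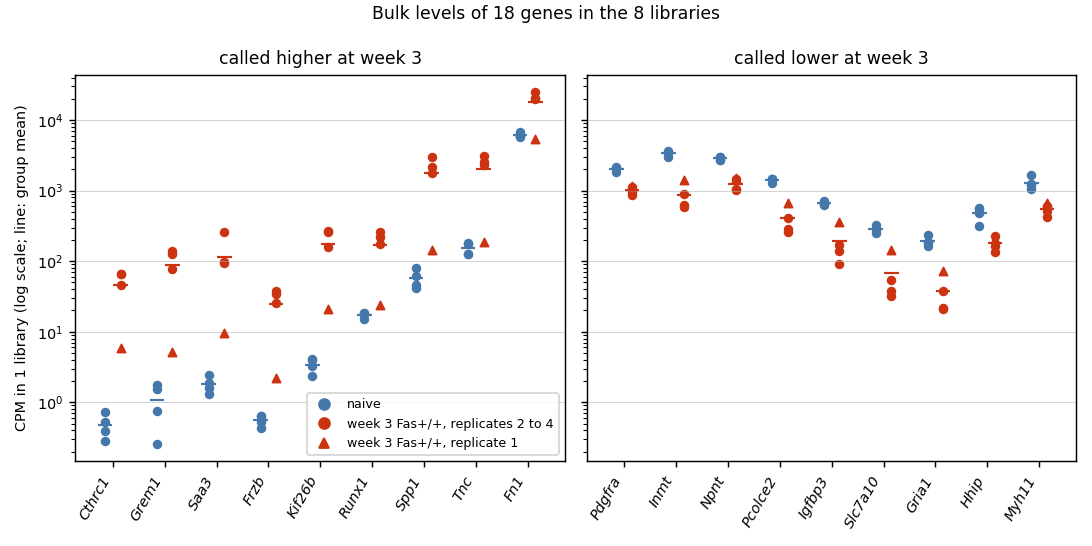
CPM of 18 genes, those called higher at week 3 on the left and those called lower on the right, on a log10 axis, 1 point per library. Group means are lines, and triangles mark week 3 replicate 1. Cthrc1 lies at 0.287 to 0.736 CPM in the naive and at 5.84 to 65.1 CPM in the week 3 libraries, and Inmt at 3002 to 3651 CPM and at 595 to 1419 CPM.

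Fibrillar collagens, which form the load-bearing fibers of scar, were called higher in 6 of 11 tested members and lower in 0, with a median of 1.04. The minor chains rose most. Col11a1, which nucleates fibers of cartilage, was at 0.302, 0.759, 0.334 and 1.13 CPM in the naive and 1.62, 47.5, 36.2 and 27.8 CPM in the week 3 libraries, a log2 fold change of 5.46 ± 0.89 (adjusted p = 0.000156). Col24a1 rose by 3.42 ± 0.54, Col5a3 by 1.37 ± 0.34 and Col5a2 by 1.25 ± 0.33. In Col5a3 replicate 1, at 89.1 CPM, was below the naive range of 104 to 146 CPM. In Col5a2 it was at 541 CPM, within the naive range of 536 to 873 CPM. The exact permutation test gave p = 0.143 for Col5a3 and p = 0.114 for Col5a2. Of the 11 members 2 were higher without overlap. Col1a1, the main chain of type I collagen at chr11:94936224-94953042, was at 3647, 7387, 5413 and 7229 CPM in the naive and 3025, 16239, 17202 and 12121 CPM in the week 3 libraries. In replicate 1 it was below every naive library, and in the other 3 above every naive library. Its log2 fold change was 1.04 ± 0.38 (adjusted p = 0.0377). The Col1a1 call was lost without any one of naive replicates 1 and 3 and week 3 replicates 2, 3 and 4, and the fold change ran from 0.82 to 1.36 over the 8 fits with 1 library left out. Col3a1, the main chain of type III collagen, was at 5409, 9673, 7077 and 10188 CPM in the naive and 4333, 12317, 13412 and 11782 CPM in the week 3 libraries and was not called (0.37 ± 0.29, adjusted p = 0.33). Without week 3 replicate 1 it was called, at 0.62 (adjusted p = 0.0345). All 6 members called higher were lowest in replicate 1 among the week 3 libraries, and without it 8 were called higher, with a median of 1.34.

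**Figure D3:**
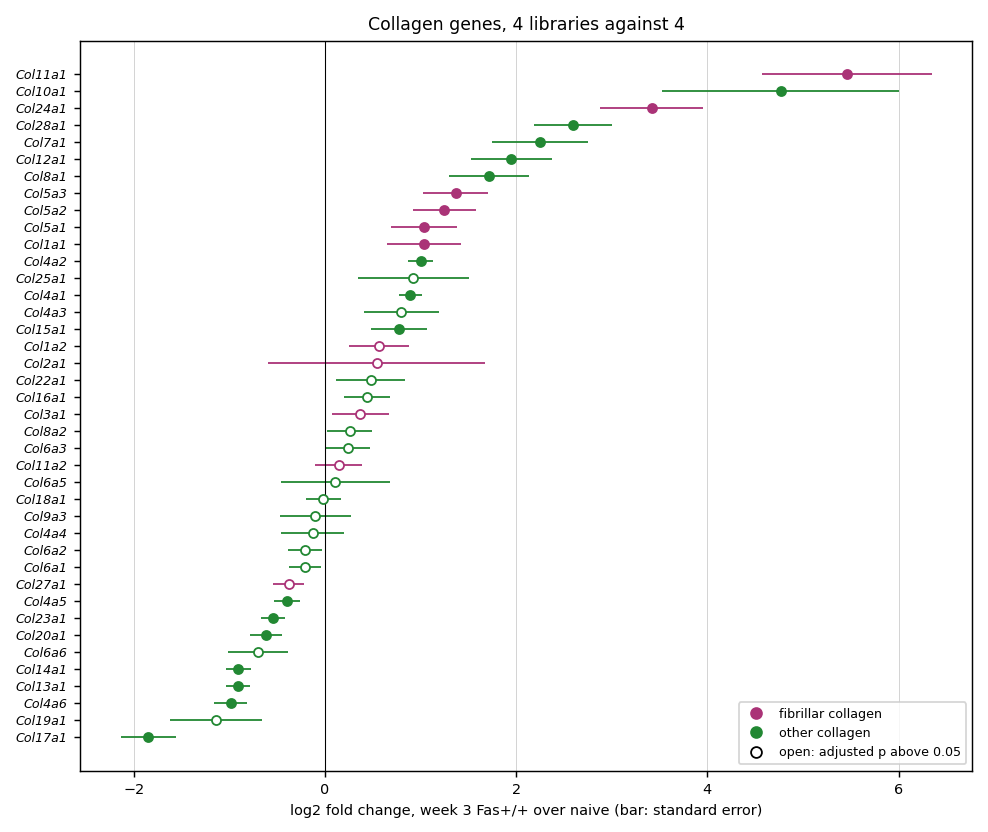
Log2 fold change of week 3 Fas+/+ over naive for each tested fibrillar and other collagen, from 4 libraries against 4, with bars of 1 SE. Filled points are called genes and open points are not called. Col11a1 stands highest, at 5.46, and Col3a1, at 0.37, is open.

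Other collagens had 8 of 29 members higher and 7 lower (12 and 5 with mesenchymal scaling), with a median of 0.11. Col28a1 was at 11.5, 13.4, 9.46 and 16.1 CPM in the naive and 19.8, 90.2, 96.3 and 100.3 CPM in the week 3 libraries, a log2 fold change of 2.6 ± 0.41 (adjusted p = 0.000112). Col7a1, the anchoring fibril collagen, rose by 2.25 ± 0.5 and Col12a1, which binds the surface of type I fibers, by 1.95 ± 0.42. In both, replicate 1 was below the naive range and the other 3 libraries above it. Col4a1, a basement membrane chain whose share of UMIs was highest in blood endothelial cells, rose by 0.89 ± 0.12 (adjusted p = 2.85e-05). Of 31 collagen-modifying and crosslinking proteins 9 were higher and 6 lower, shares near those over all genes, and these counts varied with the processing. They were 18 and 2 with mesenchymal scaling, 14 and 5 without week 3 replicate 1, 5 and 5 without replicate 2 and 3 and 5 without replicate 3 or naive replicate 1. P4ha3, a subunit of collagen prolyl hydroxylase, was at 11.3, 15.3, 16.8 and 17.7 CPM in the naive and 9.52, 95.9, 105 and 75.3 CPM in the week 3 libraries (2.22 ± 0.49, adjusted p = 0.0017). Pcolce2, which enhances the cleavage of procollagen, fell from 1443, 1281, 1440.1 and 1442 CPM to 677, 282, 255 and 405 CPM without overlap (-1.79 ± 0.22, adjusted p = 1.27e-05; with mesenchymal scaling -1.47). Serpinh1 (HSP47), the chaperone of procollagen, was at 1260.0, 1626, 1417 and 1859 CPM in the naive and 1061, 1799, 1838 and 1556 CPM in the week 3 libraries and was not called (0.02 ± 0.18, adjusted p = 0.937).

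Of 17 tested elastic fiber genes 5 were higher and 5 lower. The counts were 8 and 5 with mesenchymal scaling, 8 and 5 without week 3 replicate 1, 3 and 5 without week 3 replicate 2, 3 or 4, and 3 and 6 without naive replicate 1 or 3. Fbn2, a fibrillin of developing tissue, was at 1.42, 2.84, 0.525 and 3.68 CPM in the naive and 6.23, 78.2, 82.5 and 54.4 CPM in the week 3 libraries, a log2 fold change of 4.69 ± 0.77 (adjusted p = 0.000164). Among members of the LTBP family of matrix proteins, Ltbp2 rose by 1.66 ± 0.34 (adjusted p = 0.00103) and Ltbp4 fell from a range of 2406 to 2693 CPM to one of 854 to 1263 CPM (-1.28 ± 0.13, adjusted p = 1.79e-06; with mesenchymal scaling -0.98). Eln (elastin) rose by 0.72 ± 0.27 (adjusted p = 0.0415), and this call was lost in 5 of the 8 fits with 1 library left out, those without naive replicates 1 or 3 or week 3 replicates 2, 3 or 4.

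Small leucine-rich proteoglycans, which bind collagen fibers and set their width, were called higher in 1 of 10 and lower in 5 (3 and 5 with mesenchymal scaling, 2 and 5 without week 3 replicate 1), with a median of -0.57. Fmod (fibromodulin) was the member that rose, from 142, 116, 144 and 149 CPM in the naive to 94.7, 432, 451 and 429 CPM in the week 3 libraries (1.35 ± 0.38, adjusted p = 0.00931), with replicate 1 below every naive library. Ogn (osteoglycin) fell from a range of 527 to 634 CPM to one of 144 to 325 CPM (-1.38 ± 0.19, adjusted p = 3.74e-05; with mesenchymal scaling -1.07). Bgn (biglycan), the most abundant member, was at 4994, 5468, 5709.6 and 5726 CPM in the naive and 3307, 6563, 7056 and 6573 CPM in the week 3 libraries and was not called (adjusted p = 0.697). Basement membrane laminins and nidogens were higher in 5 of 16 and lower in 6 (7 and 2 with mesenchymal scaling). Lama1, a laminin chain of embryonic basement membranes, was at 0.388, 0.0799, 0 and 0.476 CPM in the naive and 10.1, 35.6, 37.9 and 25.5 CPM in the week 3 libraries. Npnt (nephronectin), a basement membrane protein of alveolar fibroblasts, fell from 3043, 2750.4, 2739 and 3047 CPM to 1505, 1049.8, 1007 and 1444 CPM (-1.21 ± 0.14, adjusted p = 6.19e-06; with mesenchymal scaling -0.92).

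Matrix metalloproteinases and their inhibitors were higher in 9 of 20 tested members and lower in 7. Timp1, a broad inhibitor of matrix metalloproteinases, was at 15.9, 26, 21.4 and 24 CPM in the naive and 24, 289, 477 and 288 CPM in the week 3 libraries, a log2 fold change of 3.62 ± 0.58 (adjusted p = 0.000138). Replicate 1 lay within the naive range and the other 3 libraries were far above it. Mmp10 (stromelysin 2) was at or below 0.0866 CPM in the naive libraries and at 0.343, 5.9, 7.27 and 5.37 CPM in the week 3 libraries. Timp3, the most abundant member, fell from a range of 2671 to 3099 CPM to one of 1657 to 1797 CPM (-0.75 ± 0.08, adjusted p = 4.47e-06; with mesenchymal scaling -0.47).

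Among all genes whose share of UMIs was highest in mesenchymal cells, 60 were called higher without overlap at a mean of at least 10 CPM. The 10 with the largest fold changes included Cthrc1, Grem1 and Col11a1. Inava had 1 read over the 4 naive libraries and 757 over the 4 week 3 libraries, a ratio of 979 with a counting interval of 175 to 38710. Kif26b, a kinesin-like protein of the noncanonical Wnt pathway, was at 2.37, 3.91, 3.3 and 4.07 CPM in the naive and 20.8, 259, 267 and 161 CPM in the week 3 libraries, a log2 fold change of 5.69 ± 0.73 (adjusted p = 1.86e-05). Tfap2a, a transcription factor of embryonic ectoderm and neural crest, was at 0 to 0.302 CPM in the naive and 2.31 to 20.4 CPM in the week 3 libraries. Acsl6, which activates long-chain fatty acids, was at 0 to 0.319 CPM in the naive and 0.589 to 23 CPM in the week 3 libraries. In each of these genes week 3 replicate 1 was the lowest of the week 3 libraries and above all naive libraries. Among called genes of any class without overlap and at 10 CPM or more in the higher group, the largest gains were those of Inava, of Ptprn, a protein of secretory granules (0 to 0.39 CPM in the naive and 0.981 to 62.8 CPM in the week 3 libraries), and of Selp, the P-selectin of endothelium and platelets (0 to 0.0861 CPM in the naive and 6.72 to 16.3 CPM in the week 3 libraries).

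Secreted signalling proteins and their inhibitors moved in both directions. Of 22 tested genes of the BMP pathway, 7 were called higher and 9 lower (9 and 7 with mesenchymal scaling). Of 27 Wnt ligands and secreted Wnt inhibitors, 8 were called higher and 9 lower (9 and 7 with mesenchymal scaling). Besides Grem1, the activin and BMP binding protein Fst (follistatin) rose from a range of 16.2 to 22.9 CPM to one of 16 to 160.2 CPM (2.43 ± 0.51, adjusted p = 0.0013). The Wnt inhibitor Frzb was at 0.646, 0.519, 0.43 and 0.649 CPM in the naive and 2.21, 34.2, 37.3 and 25.7 CPM in the week 3 libraries (5.44 ± 0.75, adjusted p = 3.74e-05). Sfrp1, of the same family, was at 71.2, 90.4, 112 and 99.6 CPM in the naive and 109, 626, 866 and 654 CPM in the week 3 libraries (2.6 ± 0.41, adjusted p = 0.000105), and Dkk2, which binds Wnt coreceptors, rose by 4.58 ± 0.77 (5.52 without naive replicate 4). In Fst and Sfrp1 replicate 1 was not above the naive range, and in Frzb and Dkk2 it was above that range. The Wnt ligand Wnt10a had 2 reads in the naive and 513 in the week 3 libraries, a ratio of 332 with a counting interval of 91.3 to 2746. Sost (sclerostin), another Wnt inhibitor, went the other way, from 17.2, 38.5, 30.7 and 33.4 CPM in the naive to 11.5, 5.4, 3.01 and 5.37 CPM in the week 3 libraries (-2.22 ± 0.4, adjusted p = 0.000373; with mesenchymal scaling -1.9). Bmp6 rose by 4.14 ± 1.04, and by 3.22 without replicate 1. It was at 268 CPM in replicate 1 against 48.9 to 72.1 CPM in the other week 3 libraries. Its share of UMIs was highest in blood endothelial cells.

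Of 22 TGF-beta ligands, receptors and response genes 10 were called higher and 3 lower (14 and 1 with mesenchymal scaling, 10 and 5 without week 3 replicate 4), with a median of 0.25. Tgfb1, the main profibrotic ligand, was at 32.6, 37.5, 39.3 and 39.4 CPM in the naive and 103, 173, 195 and 162 CPM in the week 3 libraries, without overlap (2.09 ± 0.17, adjusted p = 3.79e-07). The share of Tgfb1 among all UMIs was highest in platelets, a class of 30 cells. Of the platelet markers 8 of 10 were called higher, and the part of these cells in the bulk level was not tested. Inhba, whose product forms activin A, was at 6.59, 7.35, 5.68 and 5.97 CPM in the naive and 4.66, 56.8, 75.8 and 59.3 CPM in the week 3 libraries (2.93 ± 0.56, adjusted p = 0.000595), with replicate 1 below all naive libraries. Tgfbr2, the type II receptor, rose by 0.37 ± 0.11, and that call was lost without naive replicate 1 or week 3 replicate 3. Of 28 PDGF, FGF and IGF signalling genes 7 were higher and 11 lower (10 and 8 with mesenchymal scaling). Higher calls fell to 3 without naive replicate 3 and to 4 without naive replicate 1 or week 3 replicate 2, 3 or 4. Pdgfb, the ligand of the pericyte receptor Pdgfrb, was at 301 CPM in replicate 1, 87.5 to 115 CPM in the other week 3 libraries and 5.28 to 11.9 CPM in the naive libraries (4.34 ± 0.86, or 3.74 without replicate 1), and was highest in blood endothelial cells. Pdgfc, a ligand of Pdgfra, rose by 1.9 ± 0.43 and was highest in mesenchymal cells. Pdgfra fell from 2099.5, 1829, 2069 and 2148 CPM to 1155, 864, 965 and 1111 CPM without overlap (-0.99 ± 0.14, adjusted p = 3.54e-05; with mesenchymal scaling -0.7). Pdgfrb was at 973, 1019, 849 and 754 CPM in the naive and 508, 887, 859 and 786 CPM in the week 3 libraries and was not called (-0.24 ± 0.21, adjusted p = 0.376).

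IGF binding proteins moved both ways. Igfbp2 was at 7.32, 4.35, 9.36 and 7.32 CPM in the naive and 55.3, 58.5, 61.4 and 62.5 CPM in the week 3 libraries (3.07 ± 0.23, adjusted p = 2.58e-07), with the week 3 libraries close together. Igfbp3 fell from 663, 643, 710.4 and 616 CPM to 364, 168, 91.4 and 138 CPM (-1.79 ± 0.3, adjusted p = 0.000201; with mesenchymal scaling -1.45). Igfbp2 was 1 of the 5 genes called higher with the smallest p. The others were Ass1, which makes argininosuccinate (3.02 ± 0.2), the phosphatase Ppm1h (1.74 ± 0.12), the palmitoyltransferase Zdhhc20 (0.78 ± 0.06) and Cyp26b1 (3.3 ± 0.24). Each of them was highest in a class other than mesenchymal cells. The 5 genes called lower with the smallest p were Hba-a1 and Alas2, together with Fam198a (-1.23 ± 0.09), Agfg2 (-0.76 ± 0.06) and the amino acid transporter Slc38a5 (-1.39 ± 0.11).

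Lung mesenchymal transcription factors were called higher in 9 of 37 and lower in 15, and with mesenchymal scaling in 14 and 8, so the balance turned with the scaling. Runx1, a regulator of blood and connective tissue, was at 18, 18.5, 14.9 and 18.6 CPM in the naive and 23.7, 220.3, 256 and 173 CPM in the week 3 libraries (3.26 ± 0.48, adjusted p = 6.51e-05). Runx2, the regulator of bone formation, rose from a range of 2.68 to 5.87 CPM to one of 4.02 to 38.3 CPM (2.59 ± 0.53, adjusted p = 0.000957). Replicate 1 lay closest to the naive libraries in both genes and within their range in Runx2.

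Most genes of cell division rose. Of 40 tested proliferation genes 37 were called higher and 0 lower, with a median log2 fold change of 1.95. The promoters of Cdk1, the kinase that starts mitosis, and of Kif23, a kinesin of cytokinesis, are shown because many genes of late cell cycle share short promoter elements, the CHR (cell cycle genes homology region) and the CCAAT box. The sequences are from RefSeq on GRCm38.p6, run from 250 bases before to 50 after the start of the gene, and have CHR letters (TTTGAA or TTCGAA) and CCAAT letters on either strand in capitals. Cdk1 is at chr10:69352863-69353162 on the minus strand and Kif23 at chr9:61946750-61947049 on the minus strand.
Cdk1: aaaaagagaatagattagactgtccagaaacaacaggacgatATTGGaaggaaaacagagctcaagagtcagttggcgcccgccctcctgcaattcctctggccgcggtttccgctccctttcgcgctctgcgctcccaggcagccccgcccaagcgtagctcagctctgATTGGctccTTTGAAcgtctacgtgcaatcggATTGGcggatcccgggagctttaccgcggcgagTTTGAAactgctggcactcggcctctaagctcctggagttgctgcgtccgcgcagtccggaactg
Kif23: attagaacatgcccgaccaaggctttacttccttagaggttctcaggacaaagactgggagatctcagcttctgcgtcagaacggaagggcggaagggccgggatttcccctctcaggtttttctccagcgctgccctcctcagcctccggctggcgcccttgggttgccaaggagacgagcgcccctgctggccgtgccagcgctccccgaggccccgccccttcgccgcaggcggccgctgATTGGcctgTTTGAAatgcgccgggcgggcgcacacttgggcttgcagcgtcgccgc
CHR letters were in 17 of the 33 proliferation genes that had a promoter sequence (51.5%) and in 21.7% of all 27025 genes with one. A gene was counted if any of its listed promoters held the letters. CCAAT letters were in 27 of 33 (81.8%) and in 41.1% of all. Matches of these motifs can share at most 1 letter, and a match describes these windows and not a bound site.

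Cdk1 was at 0.603, 0.839, 1.72 and 2.16 CPM in the naive and 1.42, 15.1, 19.1 and 8.82 CPM in the week 3 libraries, a log2 fold change of 3.05 ± 0.61 (adjusted p = 0.000857). Kif23 was at 0.345, 0.319, 0.525 and 1.99 CPM in the naive and 1.08, 12.4, 17.4 and 7.7 CPM in the week 3 libraries (3.58 ± 0.73, adjusted p = 0.00103), and without naive replicate 4 the change was 4.58. Replicate 1 lay within the naive range in both genes, and the other 3 libraries lay above it. Aurkb, the kinase of the chromosomal passenger complex, rose from a range of 0.319 to 1.39 CPM to one of 1.42 to 10.02 CPM. Tubb5, a tubulin of dividing and resting cells, rose by 0.74 ± 0.14. Of the 37 genes called higher, 36 had their lowest week 3 level in replicate 1, and without it 38 were called higher, with a median of 2.28. Of the 37, 2 were highest in mesenchymal cells and 2 in blood endothelial cells. The shares of Cdk1, Kif23 and Aurkb among all UMIs were highest in the red cell class of the single-cell libraries, which held 22 cells. Red cell markers fell in bulk.

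Chemokines were called higher in 12 of 16 tested members and lower in 0, with a median of 2.24. Cxcl12, which attracts leukocytes and endothelial progenitors, was at 203, 214, 215 and 202 CPM in the naive and 891, 723, 822 and 664 CPM in the week 3 libraries (1.89 ± 0.28, adjusted p = 5.84e-05) and was highest in blood endothelial cells. Cxcl9, a chemokine for T cells that interferon gamma induces, rose from a range of 0.16 to 1.47 CPM to one of 2.5 to 8.45 CPM (2.98 ± 0.64, adjusted p = 0.00149, or 3.62 without naive replicate 4) and was highest in mesenchymal cells. Ccl21a, a chemokine of lymphatic vessels, was at 0 to 0.599 CPM in the naive and 10.6 to 18 CPM in the week 3 libraries. It belongs to a family of near-identical copies whose reads could be divided between them, so its level is uncertain.

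Acute-phase, complement and cytokine genes were higher in 15 of 26 tested members and lower in 4 (21 and 2 with mesenchymal scaling, 19 and 2 without replicate 1), with a median of 0.85. The lower calls were 2 also without naive replicate 2, 3 or 4 or week 3 replicate 2 or 3. Saa3, an acute-phase serum amyloid, was at 1.59, 1.32, 2.44 and 1.9 CPM in the naive and 9.47, 94, 262 and 97.2 CPM in the week 3 libraries (5.99 ± 0.97, adjusted p = 0.00014). Lcn2 (lipocalin 2), which binds bacterial iron carriers, was at 0.345, 0.599, 0.143 and 1.3 CPM in the naive and 7.85, 38.5, 117 and 53.8 CPM in the week 3 libraries (6.47 ± 0.96, adjusted p = 6.41e-05). Without week 3 replicate 3 the changes were 5.21 for Saa3 and 5.77 for Lcn2, and without naive replicate 4 that of Lcn2 was 7.16. In both, replicate 3 was the highest and replicate 1 the lowest of the week 3 libraries, and the groups did not overlap. Complement C3, the most abundant member, was at 3572, 4934, 3438 and 5484 CPM in the naive and 3401, 4198, 4661 and 6297 CPM in the week 3 libraries and was not called (0.09 ± 0.18, adjusted p = 0.719).

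Interferon-stimulated genes were higher in 16 of 31 tested members and lower in 1, with a median of 0.75, and genes of MHC class I presentation were higher in 14 of 18 and lower in 0, with a median of 1.04. Promoters of Oas1a, a sensor of double-stranded RNA, of the chemokine Cxcl10 and of B2m, the light chain of MHC class I, are shown because each holds a sequence of the form of an interferon-stimulated response element, GAAANNGAAA on either strand, given in capitals. They cover the same window as above, Oas1a at chr5:120907476-120907775 on the minus strand, Cxcl10 at chr5:92348840-92349139 on the minus strand and B2m at chr2:122147437-122147736 on the plus strand.
Oas1a: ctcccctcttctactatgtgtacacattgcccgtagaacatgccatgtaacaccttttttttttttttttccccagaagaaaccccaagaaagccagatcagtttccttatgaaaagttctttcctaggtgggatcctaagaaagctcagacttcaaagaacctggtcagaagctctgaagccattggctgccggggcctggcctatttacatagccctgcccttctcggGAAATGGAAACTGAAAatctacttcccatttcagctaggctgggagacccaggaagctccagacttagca
Cxcl10: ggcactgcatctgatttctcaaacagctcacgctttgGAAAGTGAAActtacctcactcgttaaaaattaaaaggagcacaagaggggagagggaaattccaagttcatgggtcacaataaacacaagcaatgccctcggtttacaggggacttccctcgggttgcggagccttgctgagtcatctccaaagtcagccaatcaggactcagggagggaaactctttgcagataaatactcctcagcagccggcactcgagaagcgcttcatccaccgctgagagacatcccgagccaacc
B2m: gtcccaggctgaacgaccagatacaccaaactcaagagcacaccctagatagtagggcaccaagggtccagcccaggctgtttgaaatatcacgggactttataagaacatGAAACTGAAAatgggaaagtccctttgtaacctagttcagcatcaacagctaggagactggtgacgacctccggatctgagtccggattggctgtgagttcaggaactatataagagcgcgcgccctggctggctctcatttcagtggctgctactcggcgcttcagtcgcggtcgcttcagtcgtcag
This motif was in 15 of the 24 interferon-stimulated genes with a promoter sequence (62.5%) and in 4 of 16 genes of MHC class I presentation (25%). Over all genes with a promoter sequence the share was 3.99%.

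Oas1a was at 1.46, 0.958, 0.239 and 1.43 CPM in the naive and 6.62, 6.35, 7.98 and 4.76 CPM in the week 3 libraries (2.63 ± 0.38, adjusted p = 4.97e-05), without overlap and with replicate 1 within the range of the other week 3 libraries. Cxcl10 was at 4.48, 8.27, 2.58 and 3.55 CPM in the naive and 4.32, 24.5, 33.7 and 29.7 CPM in the week 3 libraries (2.27 ± 0.56, adjusted p = 0.00358), and replicate 1 lay within the naive range. B2m was at 486, 469.7, 420.0 and 539 CPM in the naive and 1087, 853, 832 and 837 CPM in the week 3 libraries (0.91 ± 0.13, adjusted p = 4.97e-05). H2-Q7, a nonclassical class I chain, was at 7.75, 7.11, 2.48 and 8.7 CPM in the naive and 168, 68.8, 63.6 and 60.3 CPM in the week 3 libraries (3.79 ± 0.62, adjusted p = 0.000169), although reads of H2-Q genes may be divided between near-identical copies. Nlrc5, the transactivator of class I genes, rose by 3.26 ± 0.47 (adjusted p = 5.06e-05). All 14 class I genes called higher had their highest week 3 level in replicate 1, and 11 of them were highest in blood endothelial cells. Without replicate 1 the calls were 12 higher and 0 lower, with a median of 0.87. Within mesenchymal cells of the single-cell libraries, where endothelial cells were left out, B2m was at 7.46 (7.22 to 7.7) UMIs per 10000 in the naive and 11.4 (11.2 to 11.5) in the week 3 library, and at 6.98 and 11.2 without barcodes that libraries share.

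Of 28 p53 targets and cell-cycle inhibitors 17 were higher and 3 lower, with a median of 0.49. Of the 17, 7 were highest in blood endothelial cells, Cdkn1a among them, and 2 in mesenchymal cells. Cdkn2a, which encodes the inhibitors p16 and Arf, was at 0.0861, 0, 0.143 and 0.476 CPM in the naive and 0.442, 4.8, 5.85 and 3.6 CPM in the week 3 libraries (4.33 ± 0.85, adjusted p = 0.000697, or 5.52 without naive replicate 4). Its neighbour Cdkn2b rose from a range of 1.72 to 2.12 CPM to one of 7.07 to 14.7 CPM (2.54 ± 0.27, adjusted p = 2.98e-06). Cdkn1a, which encodes p21, was at 42.4, 62, 55.9 and 76.1 CPM in the naive and 214, 199, 221 and 210.2 CPM in the week 3 libraries (1.84 ± 0.16, adjusted p = 7.02e-07), and the 4 week 3 libraries were close together. Of 28 death receptor and BCL2 family genes 16 were higher and 2 lower (20 and 1 with mesenchymal scaling, 14 and 4 without week 3 replicate 1), with a median of 0.53, and 8 of the 16 were highest in blood endothelial cells. Tnfrsf10b, the mouse TRAIL receptor, was at 3.4, 4.71, 3.44 and 3.98 CPM in the naive and 22, 20.8, 21.9 and 22.5 CPM in the week 3 libraries (2.48 ± 0.41, adjusted p = 0.000185). Its ligand Tnfsf10 rose by 3.99 ± 0.99 (3.3 without replicate 1), with 235 CPM in replicate 1 and 56.6 to 82.8 CPM in the other week 3 libraries, and Pmaip1 (NOXA) by 4.0 ± 0.71. Both were highest in blood endothelial cells.

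Alveolar fibroblast genes had the highest share of members lower among the 38 gene lists that are not marker lists of cell types. Among marker lists, those of red cells (12 of 13) and mesothelium (9 of 10) had higher shares. Of 19 tested members 17 were called lower and 0 higher, at a median of -1.07, and with mesenchymal scaling the counts were again 17 and 0, with a median of -0.79. All 17 were without overlap, and 15 of them were highest in mesenchymal cells. Many members, such as Tcf21, Npnt, Inmt and Slc7a10, are also among genes that the paper associates with its single-cell trajectory to profibrotic fibroblasts. The list is therefore not independent of these data, and its share of lower calls is not a separate test. Inmt, a methyltransferase of lung stroma at chr6:55170626-55175043, was at 3651, 3002, 3375 and 3478 CPM in the naive and 1419, 618, 595 and 890.3 CPM in the week 3 libraries (-1.94 ± 0.22, adjusted p = 6.03e-06; with mesenchymal scaling -1.62). Slc7a10, a transporter of small neutral amino acids at chr7:35186385-35201114, was at 322, 253, 286 and 286 CPM in the naive and 143, 37.8, 32.1 and 55 CPM in the week 3 libraries (-2.09 ± 0.38, adjusted p = 0.000372; with mesenchymal scaling -1.74 and without replicate 1 -2.79). In both, replicate 1 lay between the naive libraries and the other week 3 libraries. Scube2 fell by 1.56 on the log2 scale and Mettl7a1 by 1.5. Macf1, a crosslinker of actin and microtubules, was the most abundant member. It went from a range of 7087 to 9448 CPM to one of 3191 to 5389 CPM (-1.0 ± 0.16, adjusted p = 0.000113). The paper names Macf1 among genes enriched in its Col14a1+ clusters, so it is not particular to alveolar fibroblasts. Replicate 1 was the highest week 3 library in 12 of the 17 genes, and without it the calls stayed at 17 lower and 0 higher, with a median of -1.29.

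The single genes that fell most among those highest in mesenchymal cells were chosen from 646 genes called lower without overlap at 10 CPM or more. Gria1, a subunit of AMPA glutamate receptors, was at 187, 166, 236 and 183 CPM in the naive and 72.1, 20.7, 21.4 and 38.1 CPM in the week 3 libraries (-2.34 ± 0.32, adjusted p = 3.05e-05; with mesenchymal scaling -2.0). Gsg1l, which binds AMPA receptors, fell from a range of 18.9 to 29.98 CPM to one of 2.22 to 5.78 CPM (-2.36 ± 0.22), and Lsamp, a neuronal adhesion protein, from a range of 11 to 18.8 CPM to one of 2.75 to 5.54 CPM (-1.99 ± 0.25). Colq, the collagen tail of acetylcholinesterase, went from 173, 156, 155 and 163 CPM to 72.1, 22.4, 16.4 and 39.2 CPM (-2.1 ± 0.32, adjusted p = 9.25e-05; with mesenchymal scaling -1.77). The uncharacterized transcripts 1810010H24Rik (-2.27 ± 0.37, or -2.96 without week 3 replicate 1) and 9330159F19Rik (-2.06 ± 0.31) and the kinase Mylk4 (-2.06 ± 0.3) complete the 10 with Slc7a10, Sost and Lrat. In these genes every week 3 library was below every naive library.

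Retinoid genes were called higher in 6 of 21 and lower in 11, and with mesenchymal scaling in 7 and 8. Lrat, which makes the retinyl esters that lipid-storing fibroblasts keep, was at 188, 158, 119.7 and 209.8 CPM in the naive and 48.2, 25.1, 21.6 and 49.9 CPM in the week 3 libraries (-2.22 ± 0.3, adjusted p = 3.52e-05; with mesenchymal scaling -1.92). Aldh1a1, which makes retinoic acid, fell from a range of 687 to 901 CPM to one of 256 to 474 CPM (-1.23 ± 0.19, adjusted p = 9.8e-05; with mesenchymal scaling -0.92). Cyp26b1, which degrades retinoic acid, rose from 3.19, 4.71, 2.82 and 5.41 CPM to 40.3, 33.5, 48.6 and 36.6 CPM (3.3 ± 0.24, adjusted p = 2.3e-07) and was highest in blood endothelial cells. Of 24 lipofibroblast and lipid handling genes 7 were higher and 8 lower (9 and 5 with mesenchymal scaling). Lpl (lipoprotein lipase) was at 55.2, 77.7, 62.5 and 106 CPM in the naive and 223, 452, 503 and 440.3 CPM in the week 3 libraries (2.43 ± 0.29, adjusted p = 8.05e-06) and was highest in mesenchymal cells.

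Contractile genes were called lower in 10 of 21 and higher in 1 (9 and 4 with mesenchymal scaling, 10 and 2 without week 3 replicate 1), with a median of -0.53. The promoter of Actc1, the actin of heart that smooth muscle of the lung also makes, is shown because it holds a CArG box, the binding element of serum response factor, given in capitals. It lies at chr2:114052826-114053125 on the minus strand.
Actc1: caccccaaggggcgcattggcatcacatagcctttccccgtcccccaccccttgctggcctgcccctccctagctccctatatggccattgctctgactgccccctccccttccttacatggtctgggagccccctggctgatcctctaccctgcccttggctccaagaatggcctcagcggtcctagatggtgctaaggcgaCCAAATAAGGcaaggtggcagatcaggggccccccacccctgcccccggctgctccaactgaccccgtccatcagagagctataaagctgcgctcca
A CArG box was in 4 of the 17 contractile genes with a promoter sequence (23.5%) and in 1.81% of all genes with one.

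Actc1 was at 219.8, 404, 280.5 and 286 CPM in the naive and 143, 104, 77.5 and 152 CPM in the week 3 libraries (-1.32 ± 0.28, adjusted p = 0.00138; with mesenchymal scaling -1.03). Myh11, the heavy myosin of smooth muscle, was at 1060.4, 1648, 1238 and 1212 CPM in the naive and 662, 519, 427 and 603 CPM in the week 3 libraries (-1.22 ± 0.22, adjusted p = 0.000409; with mesenchymal scaling -0.93). Lmod1 fell by 1.17 and Mylk by 0.87 on the log2 scale, and in all 4 of these genes the groups did not overlap. Acta2, the smooth muscle actin by which myofibroblasts are often identified, was at 1202, 2079, 1674 and 1617 CPM in the naive and 843, 1327, 1307 and 1089 CPM in the week 3 libraries, with overlap, and was not called (-0.53 ± 0.24, adjusted p = 0.0846). Smooth muscle markers as a list summed to 4293 to 6907 CPM in the naive and 2784 to 3546 CPM in the week 3 libraries, with 6 of 11 called lower and 0 higher. Pericyte markers summed to 3382 to 4619.8 CPM in the naive and 2194 to 2678 CPM in the week 3 libraries, with 8 of 11 called lower and 0 higher.

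Adventitial fibroblast genes were lower in 10 of 20 and higher in 3 (8 and 5 with mesenchymal scaling), with a median of -0.42. In mesenchymal cells of the single-cell libraries 15 of the 20 were higher at week 3, against 44.2% of all genes. With shared barcodes kept only in their deepest library 14 were higher. Without barcodes that libraries share 19 were higher, but the share of all genes was not computed there. Leaving these barcodes out also took contractile genes from 1 to 17 of 21 and ribosomal protein genes from 8 to 37 of 46. The 19 can therefore not be read as particular to this list. With all barcodes most members were higher in single cells, but their summed share of UMIs did not rise. The list includes Pcolce2, which fell in bulk, and Sfrp1, which rose. Circadian clock genes were lower in 9 of 19 and higher in 2 (6 and 3 with mesenchymal scaling), with a median of -0.51. Hlf, an output factor of the clock, fell from a range of 44.6 to 71.1 CPM to one of 18 to 29.2 CPM (-1.17 ± 0.17, adjusted p = 5.59e-05) and the repressor Cry2 from a range of 79.2 to 88.5 CPM to one of 28.4 to 59.9 CPM (-1.04 ± 0.16, adjusted p = 8.4e-05). Bhlhe40, a repressor that hypoxia and cytokines also induce, rose from 46.1, 57.9, 38.8 and 52.4 CPM to 67.3, 220.1, 259 and 251 CPM (2.03 ± 0.28, adjusted p = 4.05e-05). Ciart rose by 2.78 ± 0.76 (2.06 without replicate 1) and was at 24.6 CPM in replicate 1 against 5.5 to 8.45 CPM in the other week 3 libraries. The hour of harvest is not given for any library.

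**Figure D4:**
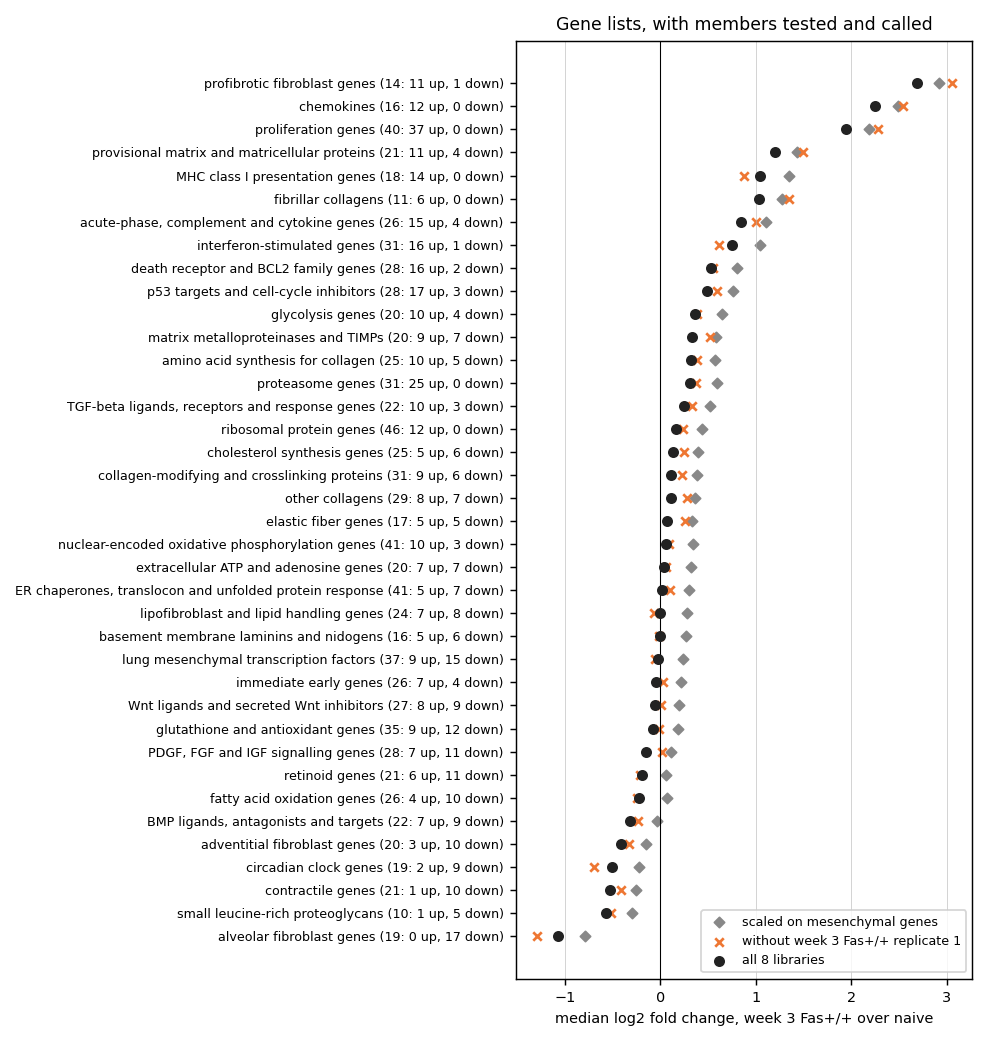
Median log2 fold change of week 3 Fas+/+ over naive for the tested members of each of the 38 gene lists, from all 8 libraries (circles), without week 3 replicate 1 (crosses) and with mesenchymal scaling (diamonds). Each label gives the members tested and those called higher and lower. Profibrotic fibroblast genes stand highest, at 2.68, and alveolar fibroblast genes lowest, at -1.07, with all libraries.

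The same contrast can be read from single-cell libraries, 1 naive and 1 from week 3 Fas+/+ mice, each a pool of 4 mice, in which cells of other types can be left out. With 1 library per group no test was made. Of 766 naive barcodes 603 passed the filters and 528 were classed as mesenchymal. Of 3127 week 3 barcodes 2664 passed and 2097 were mesenchymal. Blood endothelial cells were 1.49% of the naive and 8.75% of the week 3 cells. The naive library shared 378 of its 766 barcodes with other libraries of the series, 91 of them with the week 3 library, and values without shared barcodes are therefore given too. This left 234 naive and 2007 week 3 mesenchymal cells, and the median UMIs of naive cells that passed the filters went from 7876 to 4520. Of the 378 shared naive barcodes 364 were deepest in the naive library. Keeping shared barcodes only in their deepest library left 525 naive and 2042 week 3 mesenchymal cells. With all barcodes and over genes with at least 20 UMIs, 5824 of 13171 (44.2%) were higher per UMI in the week 3 than in the naive mesenchymal cells. This share was not computed without shared barcodes.

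Among called genes named by the fixed rule that were highest in mesenchymal cells and had at least 4 UMIs in each library, 78 in all without Wnt10a, whose bulk reads were too few for a fitted fold change, 36 rose in bulk and 29 of them were also higher in the week 3 mesenchymal cells. The other 42 fell in bulk, and 36 of them were lower in those cells. In 76 of the 78 the change was smaller in the single-cell libraries than in bulk. Much of the rule takes genes by the size of their bulk change. Genes with fewer UMIs in the naive cells, such as Cthrc1, Kif26b and Frzb, were left out. The sizes can therefore not be compared between the readouts. Without shared barcodes 66 genes had enough UMIs, 19 of 25 that rose in bulk were higher, 28 of 41 that fell were lower, and in 58 the change was smaller than in bulk. Cthrc1 had 3 UMIs in the naive and 355 in the week 3 mesenchymal cells, which is 0.00603 (0.00124 to 0.0176) and 0.16 (0.144 to 0.178) per 10000 (95% Poisson intervals), and without shared barcodes it had 0 in the naive cells and 0.119 per 10000 in the week 3 cells. Saa3 was at 0.195 (0.158 to 0.238) in the naive and 3.43 (3.35 to 3.51) in the week 3 cells, and without shared barcodes at 0.00797 and 3.17. Fn1 was at 8.83 (8.57 to 9.09) and 14.8 (14.6 to 14.9), and at 9.67 and 14.6 without shared barcodes. Timp1 was at 0.444 (0.388 to 0.507) and 1.48 (1.43 to 1.53), and at 0.159 and 1.45 without them. These genes were higher in both readouts, and with all barcodes the intervals of the 2 libraries do not overlap for any of them.

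Losses in single cells varied with the shared barcodes. Gria1 was at 0.784 (0.708 to 0.866) UMIs per 10000 in the naive and 0.386 (0.36 to 0.413) in the week 3 mesenchymal cells, Slc7a10 at 2.41 (2.27 to 2.55) and 1.4 (1.36 to 1.45), and Inmt at 38 (37.5 to 38.6) and 32.1 (31.9 to 32.4). Without shared barcodes Gria1 was at 0.805 and 0.4, Slc7a10 at 3.94 and 1.46 and Inmt at 39.4 and 33. Lrat, which fell in bulk, was at 1.55 (1.44 to 1.66) and 1.82 (1.77 to 1.88), and at 1.85 and 1.83 without shared barcodes. Col1a1 was at 21 (20.6 to 21.5) in the naive and 17 (16.8 to 17.2) in the week 3 cells. Without shared barcodes Col1a1 was at 15.5 and 16.6, so its direction turned on these barcodes. The summed fibrillar collagens went from 76.1 to 66.4 UMIs per 10000, and from 57.8 to 64.6 without shared barcodes. The contractile list behaved alike, at 103 and 83.9 with all barcodes and 57.8 and 84.6 without shared ones. With shared barcodes kept only in their deepest library neither sum turned. Fibrillar collagens were then at 76.1 and 66.3 and contractile genes at 103 and 84. Profibrotic fibroblast genes were at 59.3 and 52 with all barcodes, 49.6 and 50.7 without shared ones, and 59.1 and 51.9 by the deepest library. Provisional matrix and matricellular genes were lower at week 3 in each setting, at 89.8 and 82.6, 83.6 and 81.6, and 89.6 and 82.6. With all barcodes, 9 of 13 and 11 of 20 members of these lists with at least 20 UMIs were higher. Genes of MHC class I presentation went from 25.7 to 38.7, and acute-phase, complement and cytokine genes from 31.7 to 53.9, and both were higher without shared barcodes too, at 24.3 and 38.2 and at 25 and 53.3. Proliferation genes were at 5.17 and 4.96 (4.5 and 4.66 without shared barcodes), and alveolar fibroblast genes at 149.8 and 141 (172 and 145). Adventitial fibroblast genes were at 83.3 and 83 (57.2 and 79). The profibrotic, fibrillar collagen, alveolar and adventitial lists share members with the genes that defined mesenchymal cells. Their sums are therefore not independent of the classing. Of 21 contractile genes 1 was higher in the week 3 cells, and 17 without shared barcodes. With shared barcodes kept only in their deepest library 1 was higher, and proliferation genes summed to 5.17 and 4.95.

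**Figure D5:**
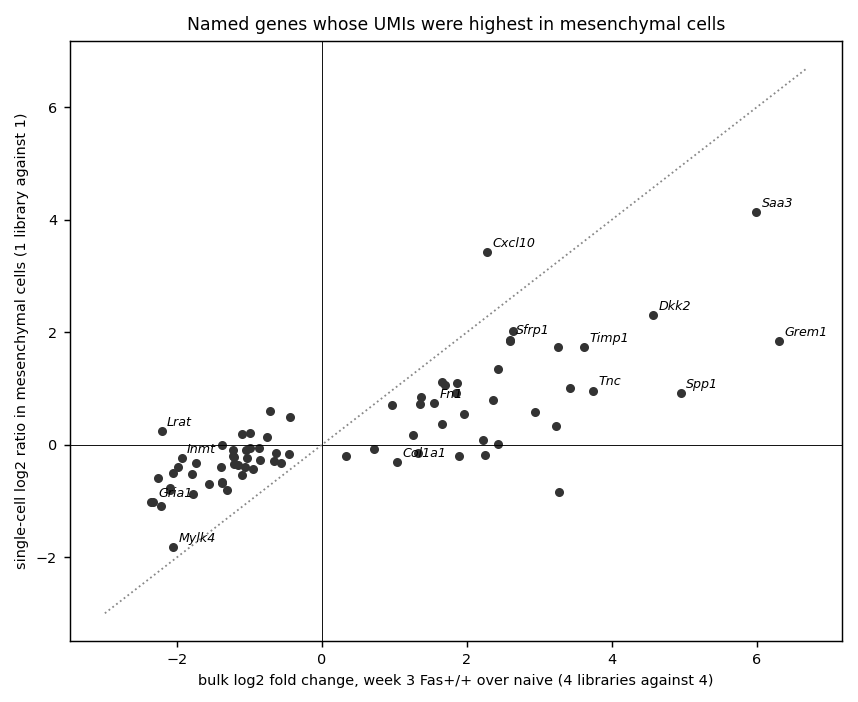
Log2 fold change in bulk (horizontal axis) against the log2 ratio of UMIs per 10000 in mesenchymal cells of the single-cell libraries (vertical axis), week 3 Fas+/+ over naive, 1 point for each of the 78 called genes named by the rule that were highest in mesenchymal cells. All had at least 4 UMIs in each library. The dotted line marks equal changes. Points in the upper right and lower left quadrants have the same direction in both readouts, 29 of 36 and 36 of 42 genes, and most points lie closer to 0 on the vertical axis.

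Other groups of the series were compared with the same 4 naive libraries, so their values are given side by side and are not independent. Fas-/- mice had the same alleles and received tamoxifen where Fas+/+ mice received corn oil, so Fas deletion and tamoxifen cannot be told apart. The paper reports that some cells of Fas-/- mice still expressed the deleted exon. In Fas-/- mice at week 3, 2713 genes (17.2%) were called higher and 2332 (14.8%) lower than in naive mice, and in Fas+/+ mice at week 6 the counts were 563 (3.57%) and 274 (1.74%). Profibrotic fibroblast genes stood at a median of 2.68 at week 3 in Fas+/+ mice, against 2.12 in Fas-/- mice at that week and 0.2 in Fas+/+ mice at week 6 (log2 fold change over naive). For proliferation genes these medians were 1.95, 1.31 and -0.27, and for alveolar fibroblast genes -1.07, -0.6 and -0.29. Interferon-stimulated genes stood at 0.75, 1.47 and 0.64, and chemokines at 2.24, 2.02 and 1.49. Cthrc1 was at 12.6 to 36.8 CPM in the Fas-/- libraries of week 3 and at 1.57 to 8.16 CPM in the Fas+/+ libraries of week 6, against 5.84 to 65.1 CPM in those of Fas+/+ mice at week 3. Saa3 was at 130.4 to 177 CPM and 7.59 to 214 CPM in these groups, with 9.47 to 262 CPM in Fas+/+ mice at week 3.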

How the data were processed

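Lin- cells were profiled by polyA-selected, stranded bulk RNA-seq and by droplet single-cell RNA-seq. The authors used skewer to trim bulk reads, HISAT2 to align them (GRCm38) and HTSeq to count reads per Ensembl gene. The deposited counts are raw, and every mapped column was used (0 columns matched no sample). For single cells, the deposited counts are raw UMI counts per barcode from Cell Ranger. The deposited normalized table, counts divided by size factors that the submitters' notes credit to DESeq2, was not used.

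Tests of bulk counts used edgeR 4.0.16 (R 4.3.3). All 20 libraries entered 1 fit with 5 groups, filterByExpr (minimum count 10) and TMM. Log2 CPM used a prior count of 2. Two-sided exact permutation tests of single genes with 4 against 4 libraries cannot go below 0.0286. On simulated data of 15476 genes, 87.1% of genes changed by a log2 fold of 2 were recovered and 65.7% of those changed by 1, and 5.06% of calls were false. The simulation changed 198 genes, drawn for both directions alike, and gave no library a different mix of cells. In the data 41.3% of genes were called and week 3 replicate 1 stood apart, so these rates do not carry over to this comparison. Single cells were kept at 200 to 7500 genes and at most 20% mitochondrial UMIs. A cell was classed as mesenchymal if it had at least 5 UMIs of the defining markers and more than 2 times the UMIs of markers of other cells. The defining markers were Pdgfra, Pdgfrb, Col1a2, Col3a1, Dcn, Bgn, Sparcl1, Gucy1a1, Gucy1b1, Tcf21, Mfap4 and Fbln1. Doublets were not called. Intervals of UMIs are exact Poisson (95%, scipy 1.17.1). Positions of genes are from GENCODE M21 and promoters from RefSeq.

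The comparison, its members and the gene lists were chosen with earlier results of these data known. Genes described singly were taken by a fixed rule: (a) the 10 largest changes in each direction among called genes without overlap, at 10 CPM or more in the higher group and highest in mesenchymal cells, (b) the 3 largest in each direction without the last condition, (c) the 5 with the smallest p in each direction, (d) of each list up to 4 called members with the largest changes and the most abundant one, and (e) Fas, Col1a1, Acta2, Pdgfra and Pdgfrb. Pecam1 was added as the marker of the sort, and 1 gene that the rule takes is not reported here. Alternatives were RLE normalization, TMM on mesenchymal genes, DESeq2 1.42.0, no filter on low counts, only the 8 libraries, a replicate block, each library left out, a log2 fold change of at least 1 and, for single cells, a stricter gate and a limit of 10% mitochondrial UMIs. Handling of barcodes shared between libraries was added after seeing the data.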

Additional observations from a re-analysis of the deposited data

Results flagged for a closer look

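The level of each of the 130 genes described above was checked in the naive and in the week 3 group for a library far from the other 3, taken as a gap to the nearest library that, as a share of the range of the group, was above Dixon's 95% critical value. Chance gives about 1 in 20 groups. There were 23 such cases, and in 14 of them week 3 replicate 1 was the library apart.

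Week 3 replicate 1 was highest, with the gap as a share of the range, for Pecam1 (0.872), Bmp6 (0.894), Pdgfb (0.873), Pmaip1 (0.951), Tnfsf10 (0.853), H2-Q7 (0.921), B2m (0.918), Nlrc5 (0.83), Ciart (0.845) and Hbb-bs (0.87). Of these 10 genes 8 had their highest share of UMIs in blood endothelial cells, and the same library had the highest sum of blood endothelial markers, 17463 CPM. It was lowest for the matrix genes Col24a1 (0.907), Col28a1 (0.874), Fmod (0.939) and Bgn (0.869), and it also had the lowest sum of defining mesenchymal markers, 19072 CPM. Whether the mix of cells accounts for these levels was not tested.

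In the naive group, replicate 4 was highest for Thbs4 (0.971), Fn1 (0.891), Kif23 (0.877) and Pmaip1 (0.857), replicate 3 was highest for Hba-a1 (0.835) and Hba-a2 (0.83) and lowest for Runx1 (0.856), replicate 2 was lowest for Pcolce2 (0.985) and replicate 1 highest for Mylk (0.874). Replicate 3 also had the highest sum of red cell markers, 9738 CPM.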

How the results depend on the processing

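Over all genes, 3484 were called higher and 3033 lower. These counts were 1755 and 697 with a log2 fold change of at least 1 required as well, and 6112 and 1169 with scaling on mesenchymal genes, under which 1169 of the 3033 genes called lower were kept. Members of the 38 lists called lower numbered 208, and 128 with that scaling, and 9 of the 38 list medians changed sign, none of them further below 0 than -0.22. Rpl4 reversed with it, from -0.01 to 0.26. RLE normalization gave 3513 and 3010, DESeq2 3793 and 3039, no filter on low counts 3336 and 2625, and only the 8 libraries 2539 and 2297. With 1 library left out in turn, genes higher ran from 2876 to 3726, genes lower from 2527 to 3606, list members higher from 269 to 398 (337 with all), list members lower from 186 to 208, and named genes called in the same direction from 221 to 231 (237 with all, of 256). With a replicate block the counts were 3313 and 2979, and 7 named genes lost their call and 2 gained one. The deviations of same-numbered libraries from their group means correlated at 0.124, -0.00672, -0.0306 and 0.145, so the numbers were not taken as pairs. In single cells 16 of 17 mesenchymal genes with the largest bulk changes had the bulk direction, and 15 to 16 under the 4 alternatives. The group with 1 library left out is fitted with the spread of all groups.

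Week 3 replicate 3 had the fewest counts, 11819700, and genes at a few reads per library, such as those of rare cells, were limited by counting. Bulk libraries hold other cells, and their part in genes that are also made outside the mesenchyme was not tested beyond the single-cell values given.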

Other observations

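Most proteasome genes rose in bulk, by small amounts. Of 31 proteasome genes 25 were called higher and 0 lower (median 0.31 on the log2 scale), and Psmd8, a subunit of the regulatory particle, was at 59.4, 61.9, 59.1 and 68.3 CPM in the naive and 66.1, 85.6, 102 and 82.4 CPM in the week 3 libraries (0.43 ± 0.09, adjusted p = 0.00125). Ribosomal protein genes were higher in 12 of 46 and lower in 0, near the 22.1% over all genes, with a median of 0.16, and 43 of 46 were higher with mesenchymal scaling. Rplp0, of the ribosomal stalk, was at 308, 344, 366 and 375 CPM in the naive and 313, 557, 640.2 and 503 CPM in the week 3 libraries (0.53 ± 0.15, adjusted p = 0.00763). Replicate 1 was the lowest week 3 library in 23 of the 25 proteasome genes and in all 12 ribosomal genes called higher, and without it 29 and 31 were higher and 0 lower. With another single library left out, ribosomal genes called higher went down to 3 without naive replicate 1, 6 without naive replicate 2 and 5, 4 and 7 without week 3 replicates 2, 3 and 4. In single-cell mesenchymal cells 8 of 46 ribosomal genes were higher at week 3, and 37 of 46 without shared barcodes. For proteasome genes these counts were 12 and 22 of 31, and 0 of the 31 were highest in mesenchymal cells. With shared barcodes kept only in their deepest library 8 of 46 ribosomal and 12 of 31 proteasome genes were higher. With all barcodes 44.2% of all genes were higher. ER chaperones, translocon and unfolded protein response genes, the folding machinery of secreted proteins, were higher in 5 of 41 and lower in 7, and without replicate 1 in 14 and 6. They were higher in 23 and lower in 0 with mesenchymal scaling, and without another single library the higher calls went down to 1 (naive replicate 1, week 3 replicate 2 or 3) or 3 (naive replicate 2 or 3, week 3 replicate 4).

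Metabolic lists had members called in both directions, and their counts varied with the scaling. Of 25 genes of amino acid synthesis for collagen 10 were higher and 5 lower (15 and 4 with mesenchymal scaling). Asns (asparagine synthetase) rose from a range of 1.94 to 3.38 CPM to one of 9.76 to 17.4 CPM (2.21 ± 0.26, adjusted p = 7.7e-06), and Slc7a5, a transporter of large neutral amino acids, from a range of 6.07 to 10.6 CPM to one of 6.28 to 64.3 CPM (2.22 ± 0.45, adjusted p = 0.00092), with replicate 1 at 6.28 CPM. Glycolysis genes were higher in 10 of 20 and lower in 4 (14 and 2 with mesenchymal scaling, 6 and 4 without naive replicate 1 or week 3 replicate 3), with Hk2 (hexokinase 2) at 3.49, 6.19, 8.69 and 9.31 CPM in the naive and 4.66, 22.6, 38 and 35.9 CPM in the week 3 libraries (1.86 ± 0.48, adjusted p = 0.00465) and Ldha (lactate dehydrogenase A) at 0.81 ± 0.18. Nuclear-encoded oxidative phosphorylation genes were higher in 10 of 41 and lower in 3 (29 and 0 with mesenchymal scaling). Their higher calls were 17 without week 3 replicate 1, 4 without naive replicate 1 or week 3 replicate 3, and 6 without naive replicate 3 or week 3 replicate 2. Fatty acid oxidation genes were lower in 10 of 26 and higher in 4, with a median of -0.22, and with mesenchymal scaling lower in 3 and higher in 8, with a median of 0.07. Ppara, their transcriptional regulator, fell from a range of 4.47 to 5.9 CPM to one of 2.22 to 2.5 CPM (-1.1 ± 0.14, adjusted p = 1.15e-05; with mesenchymal scaling -0.82), Acadm changed by -0.76 ± 0.12 and Hadh by -0.67 ± 0.06. Cholesterol synthesis genes were higher in 5 of 25 and lower in 6 (6 and 1 with mesenchymal scaling). Glutathione and antioxidant genes were higher in 9 of 35 and lower in 12 (14 and 8 with mesenchymal scaling), and Mt2, a metallothionein, rose from a range of 9.0 to 37.3 CPM to one of 23.8 to 236 CPM (2.64 ± 0.69, adjusted p = 0.00527), with replicate 1 within the naive range.

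Of 26 immediate early genes, which respond within the hour to growth factors and to tissue dissociation, 7 were higher and 4 lower (8 and 0 with mesenchymal scaling, 6 and 2 without naive replicate 2 or week 3 replicate 2 or 3). Of 20 genes of extracellular ATP and adenosine 7 were higher and 7 lower (8 and 4 with mesenchymal scaling, 6 and 4 without week 3 replicate 2). Nt5e (CD73), which makes adenosine, rose from a range of 5.11 to 5.91 CPM to one of 14.6 to 22.8 CPM (1.85 ± 0.2, adjusted p = 3.72e-06). The ATP-gated channel P2rx7 rose from a range of 15.5 to 19.9 CPM to one of 35.6 to 58 CPM (1.25 ± 0.19, adjusted p = 6.93e-05). The share of P2rx7 among all UMIs was highest in blood endothelial cells. Airway epithelial markers were higher in 2 of 3 tested and lower in 1, neutrophil and mast cell markers in 0 of 2 either way, and markers of Schwann cells and neurons higher in 2 of 8 and lower in 1 (2 and 0 with mesenchymal scaling, 2 and 2 without week 3 replicate 1). Among pericyte genes Adcy8, an adenylyl cyclase, changed by -1.39 ± 0.28 (adjusted p = 0.00093), Pdzd2 by -1.11 ± 0.24 (adjusted p = 0.00152) and Notch3, a receptor of mural cells, by -0.86 ± 0.21 (adjusted p = 0.00347). Hhip, a hedgehog inhibitor of airway smooth muscle, changed by -1.39 ± 0.18 (adjusted p = 2.11e-05).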
